A study of Homo sapiens with 21 samples.

Results

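The genes followed in K562 cells mark megakaryocytes and platelets: ITGA2B, ITGB3, GP6, GP1BB, GP9, THBS1, FLI1, RUNX1 and TUBB1. They were chosen by name, with earlier results of these data known. All 9 were found by Ensembl identifier, among 61541 genes of the gene count table and 57300 gene names of the exon bin files. In the bin files, 3 of them (ITGB3, GP6 and GP1BB) sit under names that join overlapping genes. K562 is an established human erythroleukaemic line, which per the labels was kept in RPMI medium with fetal bovine serum. The study overexpressed, separately, a pair of enhancer RNAs (eRNAs, transcripts made from an active enhancer) of an enhancer upstream of MYB, and, also separately, MYB or an N-terminally truncated MYB. The 21 libraries form 7 groups of 3: 34kn with its control 34knContol, 34kp with its control 34kpContol, and MYB overexpression, NMYB overexpression and empty vector. The labels do not spell out 34kn, 34kp or NMYB. All groups are of the same line, and the sources used here do not say whether the libraries of a group came from separate cultures, so p-values here may reflect technical spread alone.

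Megakaryocytes are the bone marrow cells that shed platelets. Their surface carries the integrin alphaIIb-beta3, which binds fibrinogen, the glycoprotein Ib-IX-V complex, which binds von Willebrand factor, and glycoprotein VI, which binds collagen. RUNX1, FLI1 and GATA1 are transcription factors of the lineage, and MYB is known to favour the erythroid over the megakaryocytic fate of their shared progenitor.

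The 3 promoters shown belong to GP6, ITGA2B and THBS1, the members on which the results turn. Each is the RefSeq stretch (GRCh38.p14) from 250 bases before to 50 after the annotated start, 5′ to 3′ on the gene's strand. GP6 lies on the minus strand at chr19:55038215-55038514, ITGA2B on the minus strand at chr17:44389600-44389899 and THBS1 on the plus strand at chr15:39580829-39581128. The RefSeq start of ITGA2B lies upstream of the GENCODE 29 gene span given with its values, so its stretch is wholly outside that span. Capitals mark matches on either strand to the motif of GATA factors, spelled AGATAA, that of ETS factors such as FLI1, spelled AGGAAG, that of RUNX factors, spelled TGTGGT, and that of MYB, spelled AACNG.
GP6: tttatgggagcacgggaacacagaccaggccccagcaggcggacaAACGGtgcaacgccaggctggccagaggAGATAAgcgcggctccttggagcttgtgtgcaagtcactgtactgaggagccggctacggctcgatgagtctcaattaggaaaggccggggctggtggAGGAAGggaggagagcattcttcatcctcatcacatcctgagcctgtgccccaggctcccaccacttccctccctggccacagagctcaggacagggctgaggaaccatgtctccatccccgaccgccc
ITGA2B: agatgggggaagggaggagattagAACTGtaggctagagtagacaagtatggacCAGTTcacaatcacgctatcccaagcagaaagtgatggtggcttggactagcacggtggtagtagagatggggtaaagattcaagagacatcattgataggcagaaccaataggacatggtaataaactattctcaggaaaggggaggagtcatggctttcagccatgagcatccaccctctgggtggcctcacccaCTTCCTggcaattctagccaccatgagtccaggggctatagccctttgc
THBS1: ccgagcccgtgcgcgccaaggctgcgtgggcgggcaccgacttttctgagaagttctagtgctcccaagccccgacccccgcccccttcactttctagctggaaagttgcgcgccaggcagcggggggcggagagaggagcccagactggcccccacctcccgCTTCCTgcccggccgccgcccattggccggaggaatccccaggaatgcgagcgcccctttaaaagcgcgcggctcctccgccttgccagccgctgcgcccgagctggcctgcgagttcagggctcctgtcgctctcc
Counted from 1 at the 5′ end, GP6 holds the MYB motif at base 46, the GATA motif at base 74 and the ETS motif at base 172. ITGA2B holds MYB motifs at bases 25 and 55 and an ETS motif at base 252, and THBS1 holds an ETS motif at base 164 and none of the other 3. Of the 35116 promoters searched, 10.3% hold the GATA motif, 33.6% the ETS motif, 13.1% the RUNX motif and 77.2% the MYB motif. A match is a stretch of letters and shows no binding. The promoter table holds 7 of the 9 members. The RUNX1 stretch has no match to any of the 4 motifs. It lies at chr21:34888650-34888949, inside the GENCODE 29 gene span given with its values, and the 5′ end of that span was not searched. GP1BB has a RUNX motif, GP9 has ETS, RUNX and MYB motifs, and TUBB1 has a RUNX motif and 3 MYB motifs.

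Gene counts summed to between 16552237 and 24462819 per library in the MYB experiment, and bin counts to between 36563252 and 41243796 in the eRNA experiments. Counts differed beyond sampling noise in all 21 pairs of replicate libraries (chi-square over its degrees of freedom, 1.53 to 46.7). MYB itself had 231, 228 and 222 CPM (counts scaled to library size by TMM) in the libraries labelled MYB and 215, 202 and 217 CPM in those labelled NMYB, against 216, 210 and 219 CPM with empty vector. The log2 fold changes, 0.08 (edgeR adjusted p = 0.230) and -0.03 (edgeR adjusted p = 0.727), did not pass the threshold of 0.05, so overexpression was not detectable in these counts and the groups are called by their labels. MYB changed by 0.17 with 34kn (edgeR adjusted p = 0.205) and by 0.07 with 34kp (edgeR adjusted p = 0.699) on the log2 scale, and the levels of the eRNAs were not analysed here. Each of the 23 erythroid markers had counts in every group. Of 18 granulocytic and monocytic markers, ELANE, CTSG and S100A8 were at 0 in all 7 groups. S100A9 was at 0 with 34kn, 34knContol and 34kp, and the others had counts in every group. These markers summed to 87.3 to 96.6 CPM with empty vector.

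Levels of the members in K562 spanned a wide range. With empty vector, and per kilobase of exon so that genes can be compared, GP6 was highest at 11.9 CPM per kb (11.3 to 12.8 over 3 libraries). ITGA2B followed at 4.58 (4.51 to 4.64) and TUBB1 at 4.28 (3.95 to 4.90), and these neighbours overlapped. RUNX1 stood at 3.69 CPM per kb (3.46 to 3.82), ITGB3 at 0.583 (0.558 to 0.604) and THBS1 at 0.290 (0.224 to 0.327). In the libraries labelled MYB the order was GP6 at 6.0, RUNX1 at 4.70, ITGA2B at 3.59, TUBB1 at 3.16, THBS1 at 0.837 and ITGB3 at 0.511 CPM per kb, and neighbours did not overlap. The length counts all exonic bases, also those shared with other genes (51.6% for ITGB3, 34.0% for TUBB1), where reads may not have been assigned. The places of ITGB3 and TUBB1 in these orders are therefore uncertain.

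The other 3 members were at or near 0. FLI1 (chr11:128686535-128813267, plus strand, GRCh38) is an ETS factor that drives late megakaryocyte genes, and GP9 (chr3:129060767-129062406, plus strand) encodes the glycoprotein IX subunit. Both were listed at 0 in all 9 libraries of the gene table, where 3 counts would be worth 0.123 to 0.181 CPM. In the 12 bin libraries FLI1 had 2 counts in all and GP9 had 4, all in 34kp control library 2. GP1BB, the glycoprotein Ib beta subunit (chr22:19722945-19724771, plus strand), was also listed at 0 in the gene table, but all of its exonic bases (100%) are shared with SEPT5 and the readthrough gene SEPT5-GP1BB. In the bin files, the 6 bins that cover GP1BB exons held 74495 counts over 12 libraries, and 22490 of these lay in a bin of 547 bases that is outside SEPT5 and shared with the readthrough gene alone (chr22:19724225-19724771, GRCh38). GP1BB therefore had no usable value of its own in the gene table, and in the bins it cannot be told apart from SEPT5-GP1BB.

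Of the partners and markers examined beside them, GP1BA was low and FCER1G, PF4 and PPBP were at or near 0. GP1BA, the ligand-binding subunit of the same complex, averaged 1.53 ± 0.06 CPM in the libraries labelled MYB and 1.28 ± 0.13 CPM in those labelled NMYB, against 1.78 ± 0.41 CPM with empty vector (SD, n = 3 each), and neither difference passed the test (edgeR adjusted p = 0.530 and 0.153). FCER1G, the signalling chain that glycoprotein VI needs on platelets, had at most 3 counts in any of these 3 groups. PF4 and PPBP, platelet chemokines that are classic markers of maturing megakaryocytes, were listed at 0 in all 9 libraries.

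**Figure D1:**
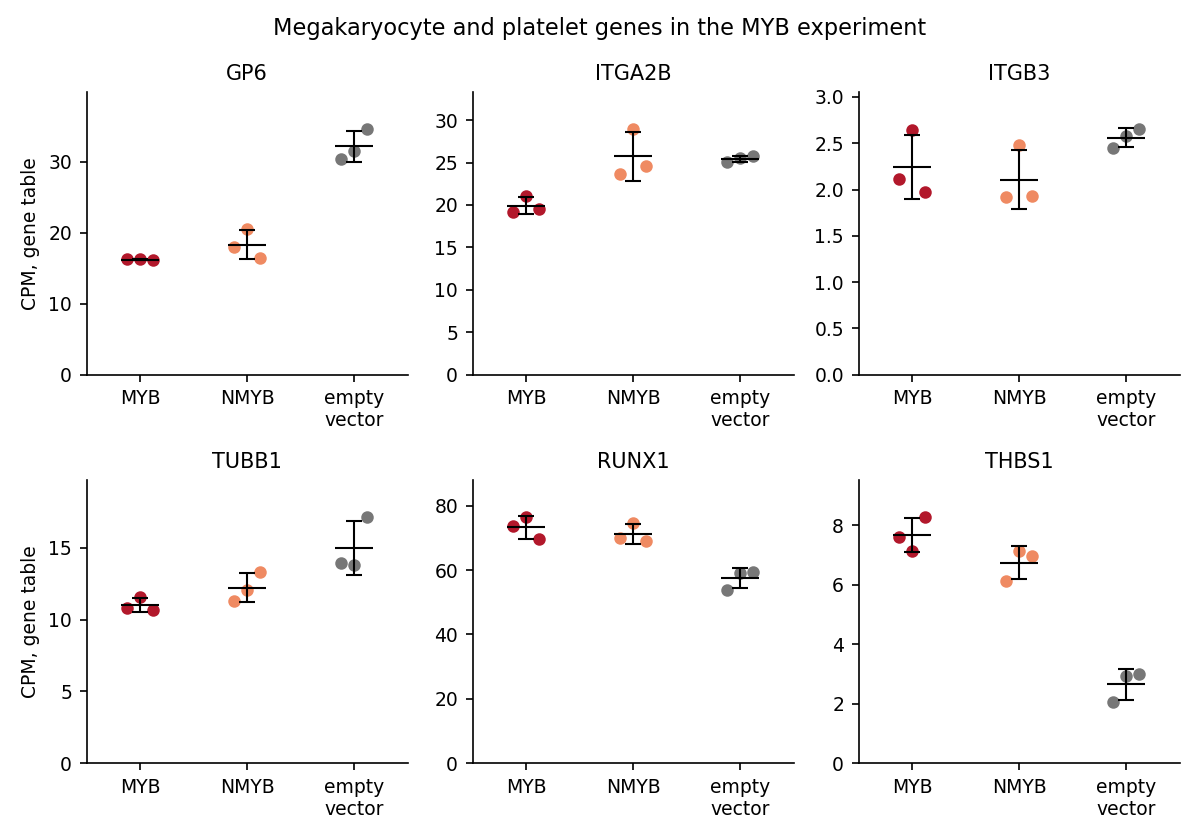
CPM (counts scaled to library size by TMM, linear axis from 0) of the 6 members with counts in the gene table, in libraries labelled MYB, labelled NMYB and with empty vector. Points are libraries and bars are the mean ± SD (n = 3). All GP6 values of the first 2 groups lie below the empty-vector values, and all RUNX1 and THBS1 values above them.

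Libraries labelled MYB differed from empty vector in most of the members that could be tested. Of the 9 members, 6 passed the filter on low counts, and 5 of these passed the test: GP6, ITGA2B and TUBB1 were lower, RUNX1 and THBS1 higher. Over all 15823 genes tested, 22.3% were called, 9.62% higher and 12.7% lower. Between the libraries labelled MYB and empty vector, 5 of the 6 members did not overlap, as was the case for 40.5% of all genes. The median log2 fold change was -0.27 over the 6 members and 0.01 over all genes.

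GP6 encodes the collagen receptor glycoprotein VI (chr19:55013705-55038264, minus strand, GENCODE 29 on GRCh38) and showed the largest fall among the members. It shares 9.99% of its exonic bases with AC011476.2 on its own strand or AC011476.3 on the other. It had 16.3, 16.3 and 16.1 CPM in the libraries labelled MYB and 18.02, 20.5 and 16.5 CPM in those labelled NMYB, against 30.4, 31.6 and 34.6 CPM with empty vector. The lowest empty-vector library was well above the highest of the other 6. The log2 fold change was -0.99 with MYB (SE 0.08, edgeR adjusted p = 4.4e-08), a level 0.504 times that of empty vector. With NMYB it was -0.82 (SE 0.08, edgeR adjusted p = 8.5e-07), or 0.568 times. The comparisons share their empty-vector libraries and so are not independent. Without any 1 library, the log2 fold change stayed between -1.01 and -0.92 with MYB and between -0.90 and -0.74 with NMYB.

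The integrin pair behaved unequally. ITGA2B (chr17:44372180-44389505, minus strand), the alphaIIb chain and an early marker of the lineage, had 19.2, 21.1 and 19.5 CPM in the libraries labelled MYB and 23.6, 28.97 and 24.6 CPM in those labelled NMYB, against 25.0, 25.5 and 25.8 CPM with empty vector. All 3 MYB values lay below all 6 others, whereas the NMYB values lay on both sides of the empty-vector values. ITGA2B fell with MYB, by 0.35 on the log2 scale (SE 0.08, edgeR adjusted p = 0.0032), and changed by 0.01 with NMYB (SE 0.08, edgeR adjusted p = 0.927). The direct difference, NMYB against MYB, was 0.37 (SE 0.08, edgeR adjusted p = 0.0342). It did not pass when only those 6 libraries were fitted (edgeR adjusted p = 0.0770) or without MYB library 1 (0.190), MYB library 3 (0.138) or NMYB library 2 (0.0714), and DESeq2 gave it no adjusted p.

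ITGB3 (chr17:47253846-47311816, plus strand), the beta3 chain that pairs with alphaIIb or with ITGAV, was low in every library. It had 2.12, 2.64 and 1.98 CPM in the libraries labelled MYB and 1.92, 2.48 and 1.93 CPM in those labelled NMYB, against 2.45, 2.58 and 2.66 CPM with empty vector, from 37 to 56 counts a library. The log2 fold changes of -0.19 (edgeR adjusted p = 0.488) and -0.29 (edgeR adjusted p = 0.279) did not pass. A share of 51.6% of its exonic bases also belongs to AC068234.1, a readthrough gene on the same strand. ITGAV, its other partner chain, averaged 42.3 ± 2.47 CPM with MYB and 40.1 ± 1.95 CPM with NMYB, against 41.8 ± 2.14 CPM with empty vector, and was not called either.

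TUBB1 (chr20:59019254-59026654, plus strand), the beta1-tubulin of the platelet marginal band, had 10.8, 11.6 and 10.7 CPM in the libraries labelled MYB and 11.3, 12.04 and 13.3 CPM in those labelled NMYB, against 14.0, 13.8 and 17.1 CPM with empty vector. No library of either labelled group reached the lowest empty-vector value. The log2 fold change was -0.44 with MYB (SE 0.10, edgeR adjusted p = 0.0032) and -0.29 with NMYB (SE 0.10, edgeR adjusted p = 0.0385). The NMYB call was lost with DESeq2 (adjusted p = 0.0736), with only the 6 libraries compared (0.0622), and without empty-vector library 3 (0.218), NMYB library 1 (0.141) or NMYB library 2 (0.0527). Of the exonic bases of TUBB1, 34.0% lie opposite ATP5F1E on the other strand, and the strand setting of the counting is not given in the sources used here.

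RUNX1 and THBS1 went the other way. RUNX1 (chr21:34787801-36004667, minus strand), a DNA-binding subunit of core-binding factor, had 73.7, 76.4 and 69.6 CPM in the libraries labelled MYB and 70.1, 74.6 and 68.9 CPM in those labelled NMYB, against 53.9, 59.2 and 59.4 CPM with empty vector. All 6 values were above all 3 of empty vector. RUNX1 rose by 0.35 with MYB (SE 0.06, edgeR adjusted p = 2.1e-04) and by 0.31 with NMYB (SE 0.06, edgeR adjusted p = 7.5e-04) on the log2 scale. CBFB, its partner subunit, averaged 90.9 ± 6.16 CPM with MYB and 87.3 ± 8.35 CPM with NMYB, against 88.0 ± 1.90 CPM with empty vector, and was not called.

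THBS1 (chr15:39581079-39599466, plus strand) encodes thrombospondin-1, a matrix protein stored in platelet alpha granules that other cells also make. Of its exonic bases, 7.58% lie opposite FSIP1 or AC037198.2. It had 7.61, 7.12 and 8.26 CPM in the libraries labelled MYB and 6.11, 7.14 and 6.98 CPM in those labelled NMYB, against 2.05, 2.92 and 2.99 CPM with empty vector. The groups were far apart, the lowest labelled library having more than the highest empty-vector library, though on low counts (41 to 53 a library with empty vector). The log2 fold change was 1.54 with MYB (SE 0.14, edgeR adjusted p = 2.7e-07), a level 2.90 times that of empty vector, and 1.35 with NMYB (SE 0.15, edgeR adjusted p = 3.2e-06), or 2.55 times.

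With NMYB, 4 of the 6 tested members passed against empty vector (GP6 and TUBB1 lower, RUNX1 and THBS1 higher), where 24.9% of all genes were called, 12.6% higher and 12.4% lower. The same 4 members did not overlap between these groups, as did not 38.9% of all genes. In the direct comparison, NMYB against MYB, ITGA2B alone was called among the 6, where 1.14% of all genes were, 0.518% higher and 0.626% lower. Without MYB library 1 no gene was called there by edgeR, and without MYB library 3 or NMYB library 1 there were 24 or 43 calls, against 181. Between those groups 2 of the 6 members did not overlap, against 22.8% of all genes. GP6 differed by 0.17 (edgeR gave no call), THBS1 by -0.19, TUBB1 by 0.15, ITGB3 by -0.10 and RUNX1 by -0.04 on the log2 scale, none past the threshold.

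**Figure D2:**
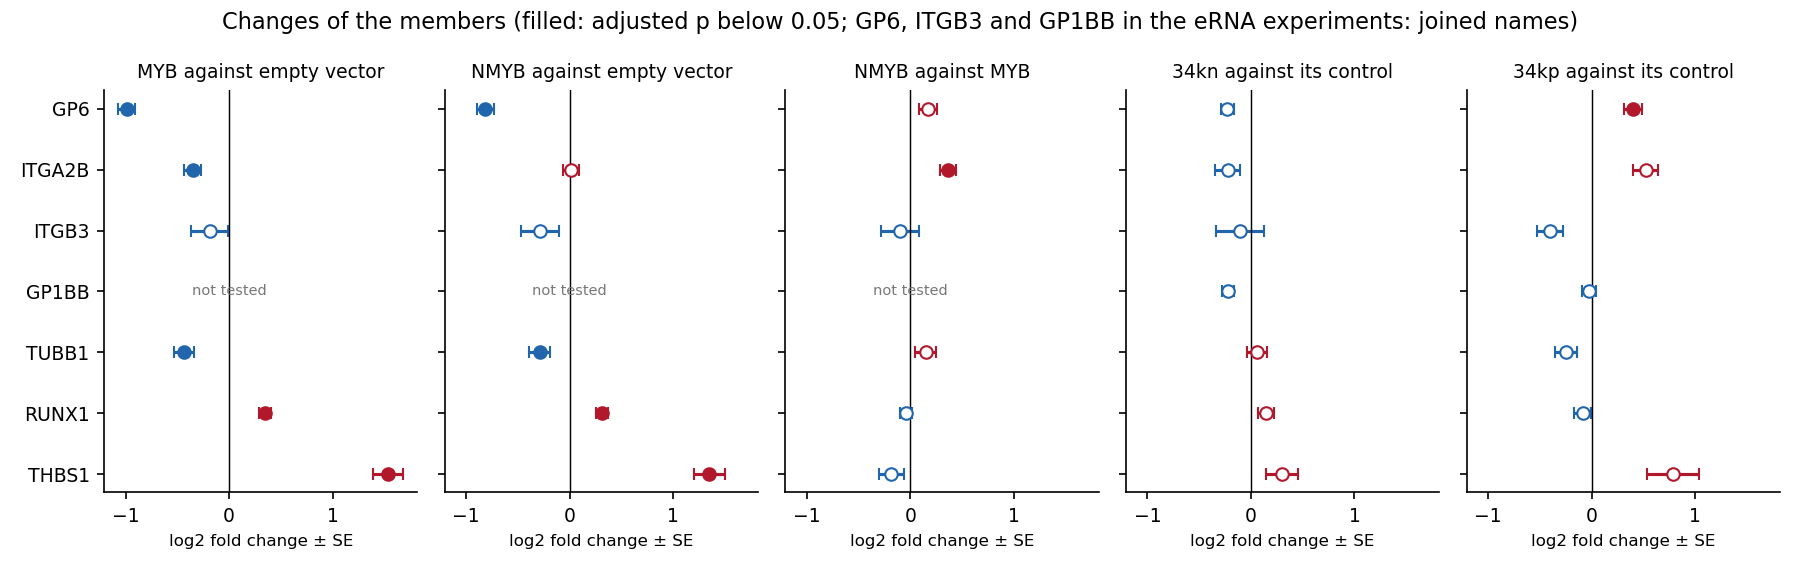
Log2 fold change ± SE (edgeR) of 7 members in 5 comparisons, drawn as group over its control. Filled points passed an adjusted p of 0.05, and open points did not. GP1BB was not tested in the gene table, and the eRNA values of GP6, ITGB3 and GP1BB are those of the names that join them with neighbouring genes.

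Genes whose pattern was most like a member's were found by Pearson's r of log2 CPM over the 9 libraries, which form 3 groups, and are given as a description. For GP6 they were MCAM, ID2 and ACLY, each with r = 0.993, and MCAM averaged 84.4 CPM with MYB and 96.8 CPM with NMYB, against 170 CPM with empty vector. For THBS1 they were SYT10 (0.988) and SYNJ2BP (0.985). ITGA2B was most like GUSB (0.990) and IDH2 (0.982), which also had their lowest mean with MYB. RUNX1 was most like FOXRED2 (0.994), PRR12 (0.986) and RRP9 (0.983), and TUBB1 like SCIN (0.951), GRTP1 (0.951) and IL17RE (0.945).

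Lists of megakaryocyte and platelet genes were counted in the same libraries. The lists were chosen with earlier results of these data known, and no list was tested as a set. Their counts are a description and not separate support for the members' changes. Over all genes, 12.7% were lower and 9.62% higher with MYB, and 12.4% lower and 12.6% higher with NMYB. The lists include the members and share some genes, so their counts are not separate from the members' calls. TUBB1 is in the cytoskeleton and tubulin lists, ITGA2B in the integrin list, GP6 in the glycoprotein VI list and THBS1 in the thrombospondin list. RUNX1 is in the transcription factor and RUNX lists, and TLN1 in the cytoskeleton and integrin lists. The lists ranged from mainly lower to mixed. Of 20 tested genes of the platelet cytoskeleton and proplatelet formation, 15 were lower and 0 higher with MYB, and 12 were lower and 0 higher with NMYB. Their median log2 fold changes were -0.24 with MYB and -0.25 with NMYB, against 0.01 over all genes in each comparison. TPM4, a tropomyosin, changed by -0.65 with MYB and -0.57 with NMYB, and VCL, the adhesion protein vinculin, by -0.31 and -0.37. Among 15 tested integrins and integrin activators, 9 were lower with MYB and 7 with NMYB, with none higher. They included ITGA5 (-0.51 with MYB, -0.45 with NMYB), TLN1, the talin that activates integrins (-0.41 with MYB, -0.40 with NMYB), and RASGRP2, an activator of Rap1 in platelets (-1.02 with MYB, -0.93 with NMYB).

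Receptors and enzymes of platelet activation had more calls lower than higher. Of 17 tested agonist receptors and thromboxane genes, 8 were lower and 1 higher with MYB, and 7 lower and 2 higher with NMYB. PTGS1, the cyclooxygenase of platelets, changed by -1.19 with MYB and -1.01 with NMYB, and P2RX1, an ATP-gated channel, by -1.33 and -1.05. In the glycoprotein VI pathway 3 of 9 tested genes were lower with MYB and 4 of 9 with NMYB, GP6 itself included. Among them were the adaptors VAV1 (-0.41 with MYB, -0.27 with NMYB) and LCP2 (-0.30 with MYB, -0.32 with NMYB). SYK, the kinase below the receptor, had 0.05 with MYB and 0.10 with NMYB, neither called.

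Among 15 tested genes of thrombopoietin signalling, 7 were lower and 2 higher with MYB, and 7 were lower and 0 higher with NMYB. SH2B3, an inhibitor of that signalling, changed by -0.65 with MYB and -0.62 with NMYB, and CBL, a ubiquitin ligase, by -0.52 and -0.67. For 13 tested alpha granule genes the counts were 6 lower and 0 higher with MYB, and 3 lower and 1 higher with NMYB. PDGFB, a platelet growth factor, had -3.40 with MYB and -2.45 with NMYB, opposite in direction to THBS1. Dense granule genes gave 6 lower of 16 with MYB and 3 lower of 16 with NMYB, and polyploidization genes 3 lower of 16 with MYB and 3 lower and 2 higher of 16 with NMYB. Their median log2 fold changes lay near that of all genes: -0.08 with MYB and -0.09 with NMYB for the dense granule list, and -0.03 with MYB and 0.07 with NMYB for the polyploidization list.

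Transcription factors of the lineage were mixed. Of 25 tested, 4 were higher and 7 lower with MYB, and 4 were higher and 3 lower with NMYB. GATA1 averaged 209 ± 4.22 CPM with MYB and 238 ± 8.22 CPM with NMYB, against 256 ± 6.69 CPM with empty vector, and passed with MYB (log2 fold change -0.29, edgeR adjusted p = 8.0e-05) but not with NMYB (-0.10, edgeR adjusted p = 0.0904). The direct difference, NMYB against MYB, was 0.18 (edgeR adjusted p = 0.0474). NFE2, which governs platelet release, fell by 0.34 on the log2 scale with MYB (edgeR adjusted p = 1.2e-05) and by 0.18 with NMYB (edgeR adjusted p = 0.0049). In the RUNX family, RUNX2 had -1.74 with MYB and -1.79 with NMYB, opposite to RUNX1. Relatives of TUBB1 gave 3 lower of 8 tested beta tubulins with MYB and 1 of 8, TUBB1 itself, with NMYB. Thrombospondins and partners of thrombospondin-1 gave 2 higher and 1 lower of 11 with MYB, and 3 higher and 1 lower of 11 with NMYB, with CALR, a binding partner, at 0.22 with MYB and 0.29 with NMYB.

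**Figure D3:**
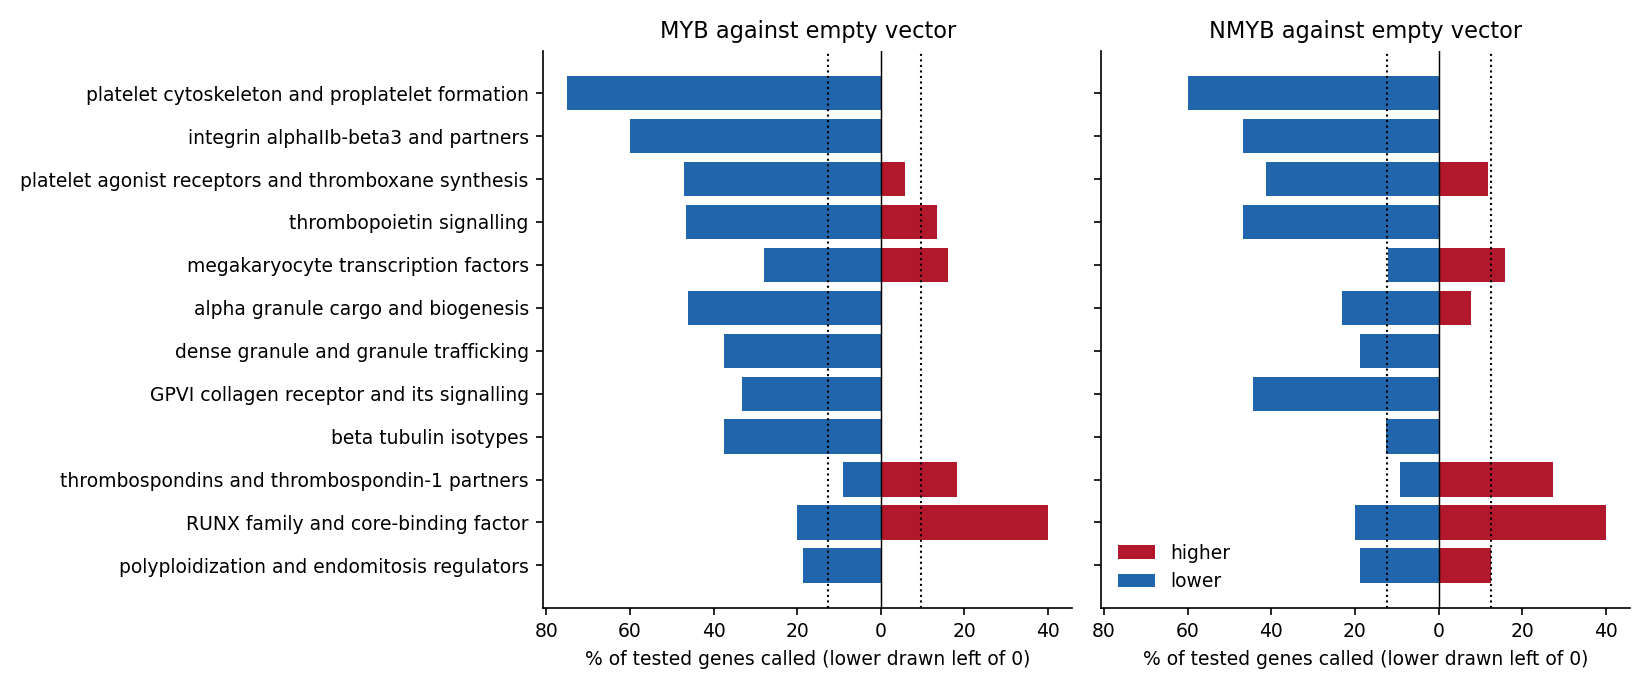
Percent of the tested genes of 12 lists that passed the edgeR threshold, higher (bars to the right of 0) or lower (bars to the left), with MYB and with NMYB against empty vector. Dotted lines are the percent of all tested genes called higher or lower. The lists were chosen with earlier results of these data known and were not tested as sets. The bars for cytoskeleton and integrin genes lie wholly to the left, whereas receptor genes and transcription factors have bars on both sides.

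Some markers of other lineages moved as well. Over all genes, 12.7% were lower and 9.62% higher with MYB, and 12.4% lower and 12.6% higher with NMYB. Erythroid markers summed to 2959 to 3050 CPM with MYB and 3068 to 3117 CPM with NMYB, against 3145 to 3340 CPM with empty vector. Of 22 tested, 2 were higher and 6 lower with MYB, and 4 were higher and 4 lower with NMYB. Lymphoid markers summed to 18.2 to 19.5 CPM with MYB and 21.2 to 22.8 CPM with NMYB, against 37.8 to 39.3 CPM with empty vector. Of 3 tested, 1 was lower in each comparison, CD3D. Endothelial and fibroblast markers summed to 17.5 to 18.1 CPM with MYB and 18.6 to 19.5 CPM with NMYB, against 27.2 to 29.4 CPM with empty vector. Here 2 of 3 tested were lower in each comparison, PECAM1 and COL1A1. PECAM1 is also counted among the platelet agonist receptors above. CDH5, LUM and PDGFRA were at 0 in all these groups. Mast cell markers gave 1 higher and 1 lower of 4 tested in each comparison. The higher one was HDC, at 1.97 with MYB and 1.97 with NMYB on the log2 scale. The lower one with MYB was GATA2 (-0.19), which is also listed among the megakaryocyte transcription factors. The lower one with NMYB was MS4A2 (-1.07). Granulocytic markers gave 1 higher and 1 lower of 7 with MYB and 1 higher with NMYB. The part of the other lineages in the members' changes was not tested. In bulk RNA, fewer cells of a kind and less RNA per cell cannot be told apart.

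The eRNA experiments asked for exon usage as well as levels, and their values are CPM of bin counts summed over a gene, where a read that spans several bins can count in each. They are therefore not on the scale of the gene table. With 34kn, 0 of the 7 tested members passed against 34knContol. Nor did any of the 16116 names tested (0%) by edgeR, whereas 3759 had an unadjusted p under 0.05 DESeq2 called 1209, and edgeR called 2982 without 34kn control library 2 and 447 without control library 1. Between these groups 4 of the 7 members did not overlap, as was true of 29.2% of all names. With 34kp, 1 of the 7 passed against 34kpContol, where 2.35% of 16662 names did (0.63% higher, 1.72% lower), and 5 of the 7 did not overlap, against 23.8% of all names. These counts read GP6, ITGB3 and GP1BB by their joined names. On the bins of their own exons, given below, the GP6 groups overlapped with 34kn and the ITGB3 groups with 34kp. The 392 calls with 34kp became 46 to 1175 when 1 library was left out, the extremes being those without 34kp control library 2 and without 34kp library 3.

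GP6 gave the clearest difference, and it depends on which bins are read. The name that joins it with RDH13 and AC011476.2 had 97.7, 94.1 and 91.3 CPM with 34kp, against 67.5, 68.0 and 77.9 CPM with 34kpContol. It had 86.7, 87.5 and 83.4 CPM with 34kn, against 101.5, 100.7 and 98.3 CPM with 34knContol. On all its bins the log2 fold change with 34kp was 0.40 (SE 0.09, edgeR adjusted p = 0.0365). That call was lost on the highest bin alone (adjusted p = 0.181) and without 34kp library 2 (0.155) or any of the 3 control libraries (0.148, 0.243 and 0.0622). It was also lost with the replicate number as a block in the fit. With 34kn the log2 fold change was -0.23 (SE 0.06, edgeR adjusted p = 0.0851), which passed with DESeq2 (adjusted p = 0.0325) and without 34kn control library 2 (edgeR adjusted p = 0.0302).

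GENCODE 29 divides this name into the same number of bins as the files, 82, and places the first 14 in GP6 exons. These 14 bins held 28.7% of the name's counts, and the choice to read them alone was made after the data were seen. On them GP6 had 28.7, 29.5 and 28.4 CPM with 34kp, against 16.3, 14.6 and 16.5 CPM with 34kpContol, and the groups lay far apart. With 34kn it had 28.4, 29.5 and 27.5 CPM, against 27.6, 26.3 and 30.8 CPM with 34knContol, and the groups overlapped. The 34kp controls thus stood below the other 9 libraries, which all lay between 26.3 and 30.8 CPM. Differences between the controls of separate experiments were not tested.

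On its own bins GP6 rose by 0.86 on the log2 scale with 34kp (SE 0.10, edgeR adjusted p = 0.0016) and changed by 0.01 with 34kn (SE 0.09, edgeR adjusted p = 0.977). Without any 1 library the 34kp value stayed between 0.81 and 0.89, with adjusted p of 4.2e-04 to 0.0271. All 14 bins had a higher mean with 34kp than with 34kpContol, and in 11 of them every 34kp library was above every control library. With 34kn, 6 of the 14 means were higher and 8 lower. Bins share reads, so they are not independent.

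The remaining bins, mostly of RDH13, had 68.9, 64.6 and 62.9 CPM with 34kp, against 51.2, 53.4 and 61.4 CPM with 34kpContol, and 58.3, 58.0 and 55.9 CPM with 34kn, against 73.9, 74.4 and 67.5 CPM with 34knContol. Of 42 such bins with at least 20 counts over the 12 libraries, 29 had a higher mean with 34kp than with its control, and 35 had a lower mean with 34kn than with its control.

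**Figure D4:**
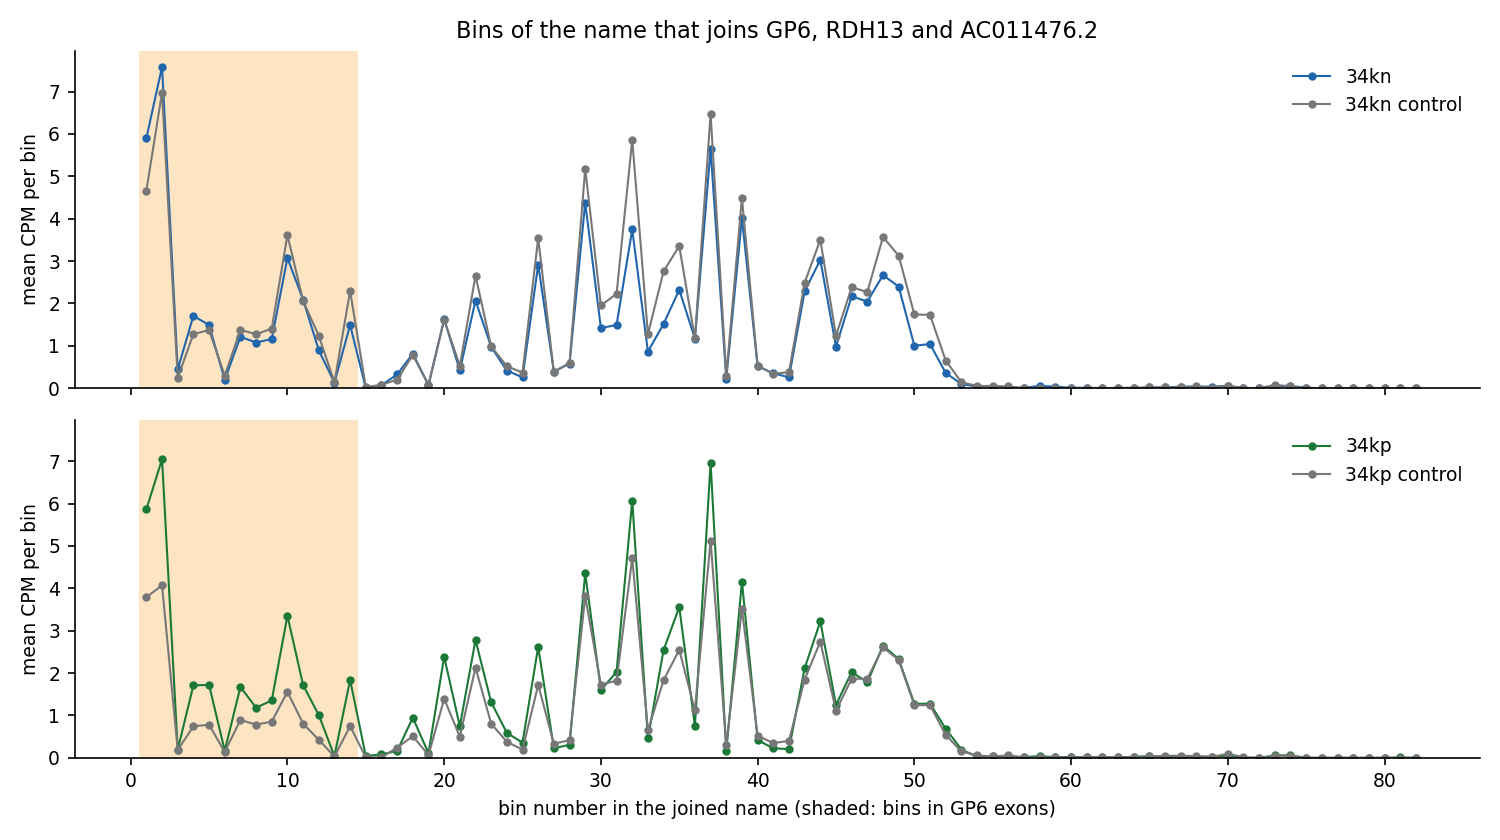
Mean CPM per bin (n = 3 libraries) over the 82 bins of the name that joins GP6, RDH13 and AC011476.2, with 34kn and its control (top) and with 34kp and its control (bottom). The shaded first 14 bins lie in GP6 exons. There the 34kp line runs above its control at every bin, and the 34kn line crosses its control.

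ITGA2B had 32.5, 26.9 and 23.2 CPM with 34kp, against 19.1, 18.7 and 19.6 CPM with 34kpContol. Every 34kp library was above every control, with a wide spread among them. The log2 fold change of 0.52 (SE 0.13, edgeR adjusted p = 0.0564) did not pass, but it did without 34kp library 3 (0.63, adjusted p = 0.0049), with DESeq2 (0.54, adjusted p = 0.0031), with all 12 libraries in the fit (0.53, adjusted p = 0.0183) and with no filter on low counts (0.53, adjusted p = 0.0014). Of its 43 bins with at least 20 counts, 42 had a higher mean with 34kp than with 34kpContol, but in only 5 was every 34kp library above every control library. With 34kn ITGA2B had 11.2, 9.64 and 9.08 CPM, against 12.3, 11.3 and 11.1 CPM with 34knContol, a log2 fold change of -0.22 (SE 0.12, edgeR adjusted p = 0.277). ITGA2B lay between 9.08 and 12.3 CPM in the 34kn experiment and between 18.7 and 32.5 CPM in the 34kp experiment, a difference between experiments that was not tested.

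Whether the eRNAs differed in their effect was tested as an interaction over 12 libraries, the 34kn effect minus the 34kp effect, in which 6.36% of 17323 names passed, 2.83% higher and 3.53% lower. Of the 7 tested members 2 passed. ITGA2B had -0.74 (SE 0.17, edgeR adjusted p = 0.0207), and GP6 under its joined name had -0.63 (SE 0.10, edgeR adjusted p = 0.0026). On its own bins GP6 had -0.86 (SE 0.12, edgeR adjusted p = 0.0013), and leaving out any 1 of the 12 libraries kept it past the threshold. The ITGA2B call did not pass on the highest bin alone (adjusted p = 0.390), or without 34kn library 2 (0.0559), 34kn library 3 (0.0577), 34kp control library 1 (0.0525) or 34kp control library 2 (0.0619). With the replicate number as a block in the fit, ITGA2B and the joined name of GP6 lost their calls. GP6 on its own bins kept its call there (edgeR adjusted p = 0.0344).

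THBS1 had 3.46, 3.43 and 3.42 CPM with 34kp, against 1.21, 2.11 and 2.65 CPM with 34kpContol, and 4.29, 3.89 and 4.21 CPM with 34kn, against 3.29, 3.18 and 3.53 CPM with 34knContol. In both experiments every eRNA library was above every control, at 51 to 163 summed counts a library. The log2 fold changes of 0.78 with 34kp (SE 0.25, edgeR adjusted p = 0.132) and 0.30 with 34kn (SE 0.16, edgeR adjusted p = 0.265) did not pass, although the first did with all 12 libraries in the fit (adjusted p = 0.0453) and with no filter on low counts (adjusted p = 0.0208).

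RUNX1 and TUBB1 gave no call with either eRNA. RUNX1 had 83.3, 82.4 and 83.1 CPM with 34kn, against 67.1, 79.2 and 77.3 CPM with 34knContol, and 70.4, 77.7 and 74.7 CPM with 34kp, against 80.5, 78.7 and 76.0 CPM with 34kpContol. Its log2 fold changes were 0.15 with 34kn and -0.08 with 34kp. TUBB1 had 13.6, 13.6 and 12.5 CPM with 34kp, against 15.4, 15.7 and 15.8 CPM with 34kpContol, all 3 below the controls (-0.24, edgeR adjusted p = 0.248). With 34kn it had 17.4, 19.8 and 17.9 CPM, against 16.57, 17.4 and 18.7 CPM with 34knContol (0.06).

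ITGB3 and GP1BB were read both ways. The name that holds ITGB3, EFCAB13 and AC068234.1 had 5.83, 5.46 and 6.08 CPM with 34kp, against 7.80, 7.56 and 7.43 CPM with 34kpContol (-0.40, edgeR adjusted p = 0.131), but on the 21 bins placed in ITGB3 the values were 3.29, 3.47 and 3.21 CPM, against 3.42, 3.42 and 4.29 CPM (-0.16, edgeR adjusted p = 0.662). With 34kn the ITGB3 bins had 2.56, 1.91 and 1.29 CPM, against 2.33, 1.98 and 2.53 CPM with 34knContol (-0.26, edgeR adjusted p = 0.574). The joined name changed by -0.11 with 34kn (edgeR adjusted p = 0.815).

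The bins in GP1BB exons had 147, 152 and 147 CPM with 34kn, against 169.8, 194 and 162 CPM with 34knContol. All 3 were below the controls, with a log2 fold change of -0.25 (SE 0.07, edgeR adjusted p = 0.0889), which passed with DESeq2 (-0.24, adjusted p = 0.0391) and without control library 1 (-0.27, adjusted p = 0.0364). With 34kp these bins had 162, 149.9 and 166 CPM, against 161, 146 and 139 CPM with 34kpContol (0.09, edgeR adjusted p = 0.605). The rest of the joined name, which is SEPT5 and its readthrough, had 356, 383 and 385 CPM with 34kn, against 461, 416 and 414 CPM with 34knContol. The whole joined name changed by -0.22 with 34kn (SE 0.06, edgeR adjusted p = 0.0788), which passed in 2 of 6 fits without 1 library. With 34kp the whole joined name changed by -0.02 (edgeR adjusted p = 0.898).

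**Figure D5:**
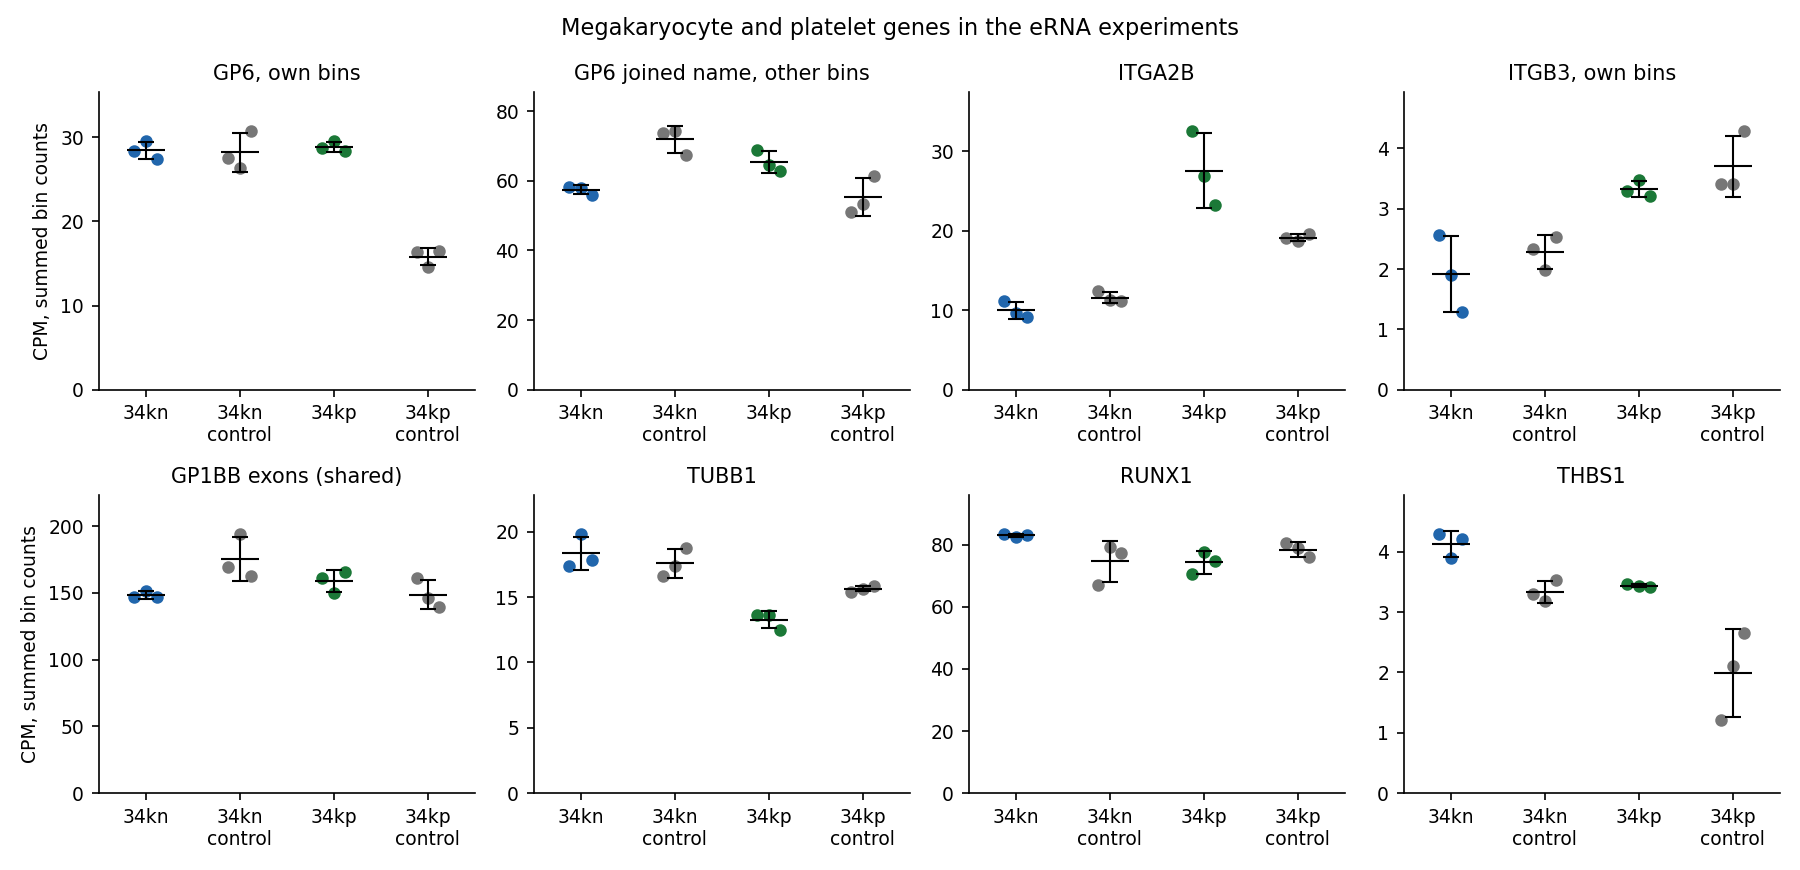
CPM of summed bin counts (linear axis from 0) in the 12 libraries of the eRNA experiments, each eRNA group left of its own control. Points are libraries and bars the mean ± SD (n = 3). GP6 on its own bins is lowest in 34kpContol, at 14.6 to 16.5 CPM, and ITGA2B is highest with 34kp, at 23.2 to 32.5 CPM.

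Exon usage, the change of a bin relative to its gene, gave 2 called bins among the members with 34kn, where 0.795% of 216197 bins were called, and 0 with 34kp, where 0.00862% of 220442 were. Of the 132 member bins tested by edgeR with 34kn, 17 had an unadjusted p under 0.05, against 18673 of all bins tested. With 34kp 18 of 148 did, the smallest p being 0.0013, against 4808 of all bins tested. The DEXSeq-type model called 0 member bins with 34kp. Member bins include those of joined names, with 46 for the GP6 name and 43 for the GP1BB name with 34kn. Both bins called with 34kn belong to the name that joins GP1BB with SEPT5, and neither lies in a GP1BB exon. Bin 2, of 25 bases in SEPT5 (chr22:19714504-19714528, GRCh38), had a log2 change relative to the name of -1.24 (edgeR adjusted p = 0.0272). Bin 25, of 5 bases in SEPT5 and SEPT5-GP1BB (chr22:19720549-19720553, GRCh38), had 0.56 (edgeR adjusted p = 0.0360). With the DEXSeq-type model neither passed (adjusted p = 0.278 and 0.517). Without a single library, bin 2 lost its call in 4 of 6 cases and bin 25 in 5 of 6. No member passed at the level of the whole gene, the smallest Simes adjusted p being 0.0644 for the GP1BB name.

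Among the lists of the wider programme, edgeR called no gene with 34kn when all 6 libraries were used, as it called none over all names, where DESeq2 called 1209. With 34kp, where 2.35% of all names were called, 3 of these lists had more than 1 call. Of 17 agonist receptors and eicosanoid genes, F2RL3 (0.85), a thrombin receptor, and TBXA2R (0.54), the thromboxane receptor, were higher and ALOX12 (-0.87) lower. Of 16 genes of thrombopoietin signalling, STAT5A was higher (0.56) and GAB2 lower (-0.49). Of 15 integrin genes, FERMT3, the kindlin that activates platelet integrins, was higher (0.40) and ITGB7 lower (-1.05).

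The other megakaryocyte and platelet lists had at most 1 call each with 34kp. GP6 was higher among 9 tested genes of the glycoprotein VI list, the corepressor CBFA2T3 (0.32) among 25 transcription factors and also in the RUNX list, RAB38 (2.18), a small GTPase of lysosome-related organelles, among 16 dense granule genes, and CCND1 (0.73), cyclin D1, among 16 polyploidization genes. VEGFA (-0.64) was lower among 13 alpha granule genes, LRP1 (-1.24), an uptake receptor for thrombospondin-1, among 12 genes of the thrombospondin list, and TUBB2B (-1.06), which has a near-identical copy that may share its reads, among 8 beta tubulins. Of 21 cytoskeleton genes 0 were called. Erythroid markers summed to 23000 to 24178 CPM with 34kp, against 21298 to 22859 CPM with 34kpContol, and 3 of 22 tested were lower (ALAS2, and the near-identical copies GYPE and GYPB, between which reads may be split). They summed to 31211 to 32260 CPM with 34kn, against 33005 to 36184 CPM with 34knContol. Their part in the members' values was not tested.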

How the data were processed

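RNA of 21 K562 libraries was sequenced, and the deposited files hold raw counts. The submitters' processing notes name, with no role given, Trimmomatic 0.93 for all libraries, STAR 2.7.10a for the 12 libraries with exon bin counts, HISAT2 2.2.1 and featureCounts 2.0.1 for the 9 libraries with gene counts, and the build GRCh38. No annotation release, strand setting or rule for reads with several alignments is given in the sources used here. Bin counts were summed per gene name, a joined name being kept as its own item, and the values of the 2 sources were never compared as levels. Changes were tested over all genes with edgeR 4.0.16 in R 4.3.3 (TMM, filterByExpr with a minimum count of 10, robust quasi-likelihood F test, two-sided, Benjamini-Hochberg adjusted p under 0.05). The MYB experiment was fitted on 9 libraries, each eRNA experiment on 6, and the interaction on 12. Exon usage was tested with diffSpliceDGE, within names that kept 2 or more bins. DESeq2 1.42.0, other filters and scalings, a replicate block and leaving out each library were alternatives, and the fits were tested on simulated data. Groups come from the labels, and the replicate numbers were not treated as pairing the samples. The 9 members and the 18 gene lists were chosen with earlier results of these data known. Named genes are all members, up to 4 called genes per list and comparison with the smallest adjusted p, partner subunits, and the 3 genes most like each member, with a log2 CPM pseudocount of 0.1 (genes without a symbol left out of the text). Some genes that this rule names are not reported here. SYK was named after its values were seen. Member bins were placed with GENCODE 29, whose number of bins equals that of the files for 6 of the 9 members.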

Additional observations from a re-analysis of the deposited data

Results flagged for a closer look

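The 34kn and 34kp effects differed for 2 members, by an interaction test over all 12 libraries with edgeR. ITGA2B had an interaction (34kn effect minus 34kp effect) of -0.74 on the log2 scale: all 3 of the 34kp libraries were above their controls, and 2 of the 3 34kn libraries were below theirs. GP6, under the name that joins it with RDH13, had -0.63: all 3 of the 34kp libraries were above their controls, and all 3 of the 34kn libraries below theirs. On its own bins GP6 had -0.86, and there the 34kn libraries overlapped their controls. The ITGA2B call held in 8 of the 12 fits without 1 library. Neither the ITGA2B call nor that of the joined name held with the replicate number as a block in the fit.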

How the results depend on the processing

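The replicate numbers were not treated as pairing the samples, and whether they do is not stated. Deviations of same-numbered libraries correlated at -0.023 to 0.0991 in the MYB experiment, against -0.122 to 0.0855 for other numbers. They correlated at -0.0511 to 0.0023 in the 34kn experiment and at -0.209 to 0.0080 in the 34kp experiment. With the replicate block, 1184 genes were called for NMYB against MYB and 71 with 34kp, against 181 and 392 without it, and 0.606% of names for the interaction, against 6.36%. Members called under the block were 0 with 34kp and 0 for the interaction, GP6 by its joined name and ITGA2B losing their calls, and 8 exon bins were called with 34kp. GP6 on its own bins kept its calls under the block (0.86 with 34kp, edgeR adjusted p = 0.0285; interaction -0.86, edgeR adjusted p = 0.0344). Genes called for NMYB against MYB were 437 with DESeq2, 656 with no filter and 60 with only the 6 libraries compared, and 0 to 323 without 1 library. With 34kn, against 0, they were 1209 with DESeq2, 1572 with no filter, 118 on the highest bin, and 0 to 2982 without 1 library (2982 without control library 2). With 34kp they were 879 with DESeq2, 997 with no filter, 817 with 12 libraries in the fit, 208 on the highest bin, and 46 to 1175 without 1 library. For the interaction, 3.62% of names were called on the highest bin and 2.14% to 15.4% without 1 library, while 1952 with DESeq2 and 2085 with no filter, of more names tested, compare with 1102.

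Members called for NMYB against MYB were 0 with DESeq2 and 0 in the fit of 6 libraries, and 0 to 1 without 1 library. With 34kn they were 2 with DESeq2, 1 with no filter, 1 on the highest bin, and 0 to 2 without 1 library. With 34kp they were 2 with DESeq2, 3 with no filter, 3 with 12 libraries in the fit, 0 on the highest bin, and 0 to 2 without 1 library. For the interaction they were 1 to 2 without 1 library. Exon bins called were 26 with 34kn under the DEXSeq-type model and 255 to 8399 without 1 library, against 1719, and 4 to 60 with 34kp without 1 library, against 19.

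The log2 values that changed sign were not past the threshold in either reading. ITGA2B with NMYB against empty vector had -0.021 with no filter and -0.077 to 0.064 without 1 library. ITGB3 had -0.24 to 0.0085 for NMYB against MYB, -0.43 to 0.12 with 34kn and -0.032 to 0.51 for the interaction without 1 library. Its interaction was -0.19 on the highest bin and -0.094 on its own bins, whose range without 1 library was -0.36 to 0.12. With 34kn, GP6 had 0.061 on the highest bin and 0.0051 on its own bins (-0.041 to 0.075 without 1 library), THBS1 had -0.23 on the highest bin, and TUBB1 had -0.00098 to 0.11 without 1 library. GP1BB with 34kp had 0.094 on the highest bin, 0.091 on its own bins and -0.075 to 0.015 without 1 library. The cause was not tested. Low counts limit ITGB3 and THBS1, and FLI1 and GP9 could not be tested.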
